A study of Mus musculus with 6 samples.

Results

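Ms4a4b, Ms4a4c, Ms4a6b and Ms4a1 are members of the MS4A family, a group of small membrane proteins that cross the cell membrane several times and lie in 1 cluster of genes on mouse chromosome 19. All probe sets annotated to these genes were taken, which gave 7 of the 45037 probe sets tested and 4 of the 17097 genes. Ms4a4b and its relatives were singled out because of their signal in these same arrays, so their levels and differences are given as a description and no p-value is given for them. They were chosen by the fitted change of their intensity between the groups, chiefly the rise of Ms4a4b in wells with BTNL2.Fc.

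Messenger RNA was measured on 6 one-colour arrays, each from 1 culture of mouse CD4+ T cells depleted of CD25+ cells. The donors were female C57BL/6 mice, and the labels name the spleen in one place and the spleen with lymph nodes in another. All wells were coated with anti-CD3 at 2 µg/ml, an antibody that triggers the T cell receptor, and all cultures ran for 4 days with 10 ng/ml of IL-2 and 0.36 ng/ml of TGF-beta. The anti-CD3 wells held control IgG besides. The B7-2 wells also held B7-2.Fc at 3 µg/ml, a fusion protein of the ligand of the costimulatory receptor CD28, again with control IgG. The BTNL2 wells held anti-CD3, B7-2.Fc and BTNL2.Fc at 11 µg/ml, a fusion protein of a butyrophilin-like relative of the B7 ligands. Each group had 2 arrays. Cultures were set up in duplicate, and nothing in the labels says that the duplicates came from separate animals, so every standard deviation and p-value measures the spread between these cultures only. The comparison of BTNL2 with B7-2 wells shows the added BTNL2.Fc, and that of B7-2 with anti-CD3 wells shows the added B7-2.Fc. These comparisons share the B7-2 arrays.

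MS4A proteins sit in the plasma membrane and in intracellular membranes, where several of them associate with receptors and modulate their signalling. Ms4a1 encodes CD20, the B cell surface protein targeted by therapeutic antibodies. Ms4a4b is a T cell member of the family that is expressed in Th1 cells, associates with the costimulatory receptor GITR and slows the division of T cells when its level is raised. Ms4a6b is another member found in T cells, and Ms4a4c is a close relative of Ms4a4b whose function is less well described.

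The RefSeq gene table placed 21 MS4A genes in the cluster, of which 17 were measured. In its order along the chromosome Ms4a1 was followed by Ms4a7, Ms4a4c, Ms4a4b, Ms4a6c and Ms4a6b among the measured MS4A genes. The 250 bases before the annotated gene start are shown because they show how alike the members are outside their coding parts. They come from RefSeq (GRCm38.p6, plus strand) and are given for the 3 of 4 members found in the promoter table, with Ms4a6c beside its partner. The window of Ms4a4b is chr19:11443308-11443557 and that of Ms4a4c is chr19:11407411-11407660. The window of Ms4a6b is chr19:11518309-11518558 and that of Ms4a6c is chr19:11469118-11469367. Capitals mark runs of at least 12 bases that were identical in an alignment of Ms4a4b with Ms4a4c, or of Ms4a6b with Ms4a6c.
Ms4a4b: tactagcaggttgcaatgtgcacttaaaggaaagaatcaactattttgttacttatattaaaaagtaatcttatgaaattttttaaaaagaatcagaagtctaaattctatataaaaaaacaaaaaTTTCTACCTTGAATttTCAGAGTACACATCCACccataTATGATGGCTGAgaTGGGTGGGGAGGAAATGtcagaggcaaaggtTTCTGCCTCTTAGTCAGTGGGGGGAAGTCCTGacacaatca
Ms4a4c: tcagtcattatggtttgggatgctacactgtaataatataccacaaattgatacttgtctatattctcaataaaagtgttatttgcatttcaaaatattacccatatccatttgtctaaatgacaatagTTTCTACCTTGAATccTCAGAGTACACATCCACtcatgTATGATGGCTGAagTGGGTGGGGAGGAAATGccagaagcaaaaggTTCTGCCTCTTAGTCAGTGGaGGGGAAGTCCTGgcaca
Ms4a6b: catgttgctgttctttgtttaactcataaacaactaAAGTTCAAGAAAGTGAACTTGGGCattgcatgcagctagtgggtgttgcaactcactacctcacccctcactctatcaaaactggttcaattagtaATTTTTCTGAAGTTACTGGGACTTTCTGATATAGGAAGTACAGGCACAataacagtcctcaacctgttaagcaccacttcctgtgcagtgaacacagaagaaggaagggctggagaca
Ms4a6c: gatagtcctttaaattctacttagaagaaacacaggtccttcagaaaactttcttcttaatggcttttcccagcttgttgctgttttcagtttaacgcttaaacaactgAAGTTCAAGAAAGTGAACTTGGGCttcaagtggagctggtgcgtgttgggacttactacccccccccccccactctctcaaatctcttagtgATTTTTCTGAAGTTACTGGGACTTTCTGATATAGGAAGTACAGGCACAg

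Among 170 pairs formed from 19 windows of 18 MS4A genes, the pair of Ms4a4b and Ms4a4c had the most identical bases in the window. The alignment put no penalty on gaps at the ends. Of the 250 bases of their windows 178 were identical, which is 71.2%, and 6 runs of identical bases held 92 bases. Ms4a6b and Ms4a6c formed the pair with the next most, at 59.6% of the window, and their longest identical run was 48 bases. Counted over the aligned bases only, this order was reversed. Ms4a6b and Ms4a6c were identical at 85.1% of 175 aligned bases, and Ms4a4b and Ms4a4c at 74.2% of 240. The median pair shared 46.8% of the window and the third pair in the order shared 54.0%. Identity in a window is a description of the letters and not of regulation.

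5 motifs were searched on both strands of these windows and of all 32851 windows of the same length. The interferon-stimulated response element was written as GAAA and GAAA parted by 2 bases of any kind, and the STAT motif as TTCNNNGAA. They were present in 2.98% and 7.02% of all windows and in none of the 4 printed ones. The T-box motif TCACACCT, bound by factors such as T-bet and eomesodermin, was in 1.12% of all windows and in none of the 4. The ETS motif AGGAAG, in 29.5% of all windows, occurred 3 times in Ms4a6b and once in Ms4a6c. The KLF motif CACCC, in 52.0% of all windows, was found in Ms4a4b, Ms4a4c and Ms4a6b. A missing match says only that these letters were not in these windows.

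Ms4a4b had the largest span of levels of the 4 genes. Its bright probe set, 1423467_PM_at, read 196.75 and 210.02 intensity units in the anti-CD3 wells, 69.57 and 62.33 in the B7-2 wells and 2383.97 and 2005.55 in the BTNL2 wells. These values are on the linear scale of the deposited table, in which the median probe set of an array read 18.44 to 18.75. The B7-2 wells were lowest, the anti-CD3 wells lay between, and the BTNL2 wells were highest, with no overlap between any groups. The group means were 203 ± 9.38, 65.95 ± 5.12 and 2195 ± 268 (SD, n = 2 each). On the log2 scale the level in B7-2 wells differed from that in anti-CD3 wells by -1.63 ± 0.12 (SE), a 3.09-fold lower level. With BTNL2.Fc added the level was 5.05 ± 0.12 above that in B7-2 wells, or 33.2-fold higher. It was also 3.43 ± 0.12 above anti-CD3 alone, or 10.8-fold higher. Ordered by fitted change over all 45037 probe sets, this was the 8th largest rise of BTNL2 over B7-2 wells and the 33rd largest of BTNL2 over anti-CD3 wells. In B7-2 against anti-CD3 wells it was the 193rd largest fall.

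The other Ms4a4b probe set, 1425325_PM_at, was close to background. It read 6.45 and 5.27 in anti-CD3 wells, 6.63 and 5.55 in B7-2 wells and 11.68 and 9.64 in BTNL2 wells. The brightest of the 23 nonspecific control probe sets read 5.02 to 5.99 on the 6 arrays. Only the BTNL2 arrays stood clearly above those controls, and the other groups overlapped. The log2 difference of BTNL2 from B7-2 wells was 0.81 ± 0.15, a 1.75-fold higher level. Both probe sets were therefore highest in the BTNL2 wells, but the dim one gave no difference between anti-CD3 and B7-2 wells beyond its spread, at 0.06 ± 0.15.

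**Figure D1:**
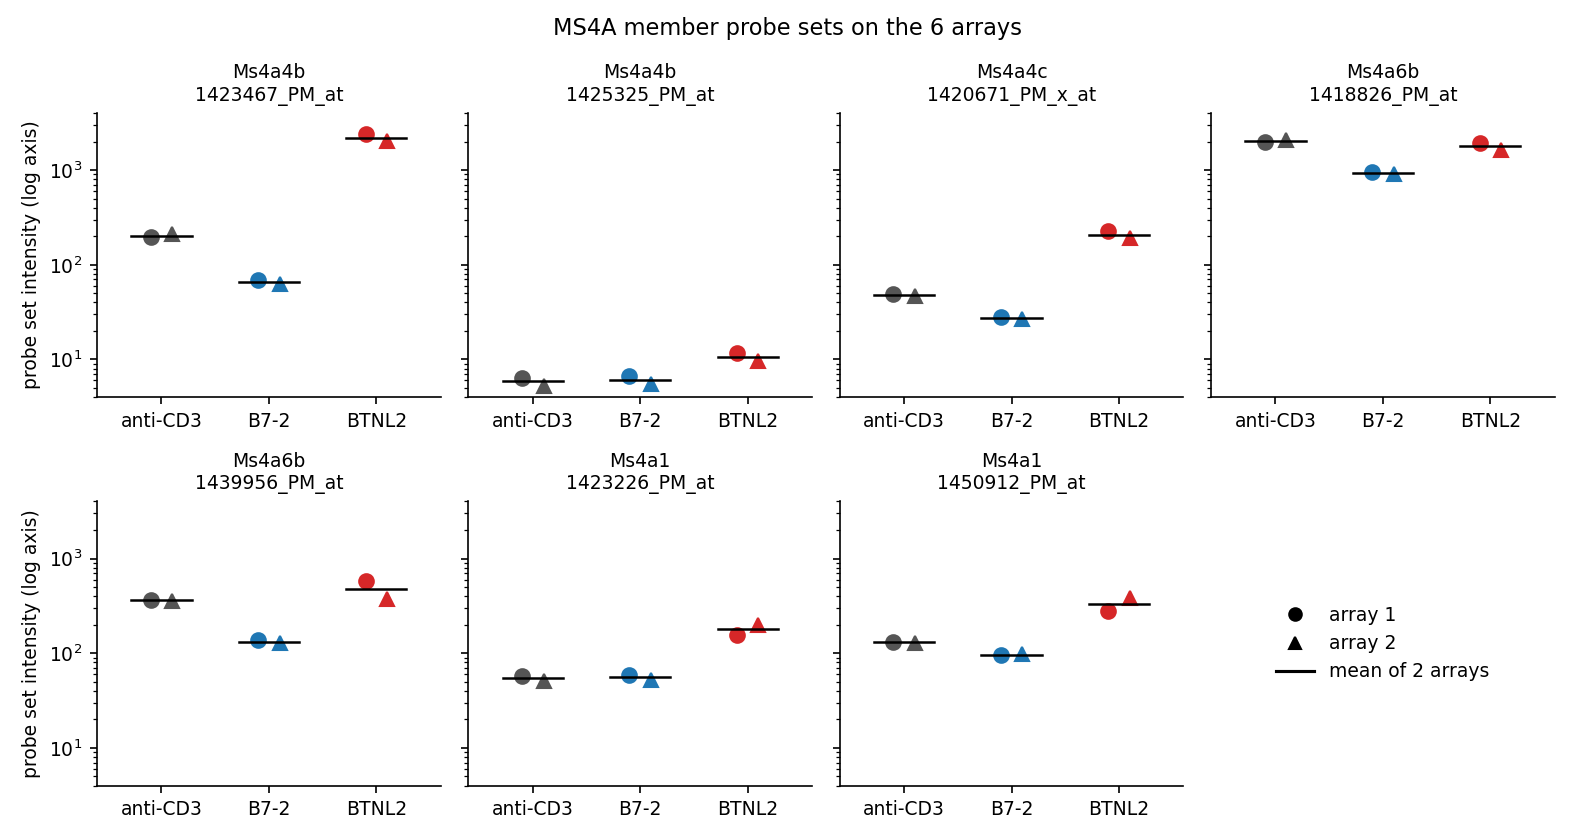
Intensity of the 7 probe sets of Ms4a4b, Ms4a4c, Ms4a6b and Ms4a1 on the 6 arrays, on a log axis; each point is 1 array and each bar a group mean. The bright Ms4a4b probe set spans from 62.33 in a B7-2 well to 2383.97 in a BTNL2 well.

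Ms4a4c had the same order of groups. Its only probe set, 1420671_PM_x_at, read 48.76 and 46.52 in anti-CD3 wells, 28.24 and 26.52 in B7-2 wells and 224.48 and 189.93 in BTNL2 wells. The groups did not overlap. Its level in B7-2 wells was 0.80 log2 units under that in anti-CD3 wells (-0.80 ± 0.11), or 1.74-fold lower. BTNL2 wells stood 2.92 ± 0.11 above B7-2 wells, or 7.55-fold higher, and 2.12 ± 0.11 above anti-CD3 wells, or 4.34-fold higher. The x in the name of the probe set marks probes that may also bind other transcripts, so the Ms4a4c signal is uncertain. What part of it came from Ms4a4b transcripts was not tested.

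Ms4a6b was bright in every group and differed from Ms4a4b in that its level in BTNL2 wells was only about that with anti-CD3 alone. Its brighter probe set, 1418826_PM_at, read 1962.61 and 2072.33 in anti-CD3 wells, 957.99 and 916.6 in B7-2 wells and 1937.13 and 1610.34 in BTNL2 wells. All 6 values were far above the nonspecific controls. The B7-2 wells were lowest, 2.15-fold under anti-CD3 wells (-1.11 ± 0.12) and exceeded 1.88-fold by the BTNL2 wells (0.91 ± 0.12). The BTNL2 arrays reached from 1610.34 to just under the lower anti-CD3 array, a log2 difference of -0.19 ± 0.12.

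The Ms4a6b probe set 1439956_PM_at gave the same low B7-2 wells but another order at the top. It read 363.59 and 357.36 in anti-CD3 wells, 136.89 and 127.55 in B7-2 wells and 576.57 and 373.74 in BTNL2 wells. The B7-2 wells were 2.73-fold lower than anti-CD3 wells (-1.45 ± 0.19), and the BTNL2 wells were 3.51-fold higher than B7-2 wells (1.81 ± 0.19). Against anti-CD3 wells the difference was 0.36 ± 0.19, opposite in sign to that of the other probe set. The order of anti-CD3 and BTNL2 wells for Ms4a6b is thus not settled by these probe sets, and the BTNL2 arrays of this one differed 1.54-fold from each other.

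Ms4a1 read well above the nonspecific controls in these T cell cultures and was highest in the BTNL2 wells by both of its probe sets. The brighter one, 1450912_PM_at, read 132.81 and 127.94 in anti-CD3 wells, 95.3 and 97.82 in B7-2 wells and 280.22 and 384.11 in BTNL2 wells. The groups did not overlap. The BTNL2 wells were 3.4-fold higher than B7-2 wells (1.76 ± 0.15) and 2.52-fold higher than anti-CD3 wells (1.33 ± 0.15). B7-2 wells were 1.35-fold lower than anti-CD3 wells (-0.43 ± 0.15).

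The other Ms4a1 probe set, 1423226_PM_at, read 57.37 and 51.43 in anti-CD3 wells, 58.67 and 52.34 in B7-2 wells and 157.13 and 199.54 in BTNL2 wells. Here the anti-CD3 and B7-2 wells overlapped (0.03 ± 0.14), while the BTNL2 wells were 3.2-fold above B7-2 wells (1.68 ± 0.14). The fall with B7-2.Fc therefore rests on 1 of the 2 Ms4a1 probe sets. For both, array 2 of the BTNL2 wells was the higher one, with ratios of array 1 to array 2 of 0.787 and 0.73. For the other 5 probe sets array 1 of the BTNL2 wells was the higher one, with ratios from 1.18 to 1.54.

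Across the members, the threshold of an adjusted p under 0.05 in the limma fit over all probe sets was passed in BTNL2 against B7-2 wells by 7 of 7, all higher, where 13.8% of all probe sets passed. In B7-2 against anti-CD3 wells 4 of 7 passed, all lower, where 17.3% of all probe sets passed. In BTNL2 against anti-CD3 wells 5 of 7 passed, all higher, where 22.2% passed. Those comparisons chose the genes, so nothing is read from these counts. In order of level, the B7-2 wells were lowest for 5 probe sets, and for the dim Ms4a4b and the dimmer Ms4a1 probe set anti-CD3 and B7-2 wells overlapped.

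Among the MS4A genes that had not been picked, 13 were measured, and most were dim: 8 of them read under 20 on all 6 arrays. In B7-2 against anti-CD3 wells 3 of 13 fell and 0 rose, which is 23.1% beside 24.5% of all genes (11.2% higher, 13.3% lower). In BTNL2 against B7-2 wells 1 of 13 rose and 0 fell, or 7.69% beside 20.4% of all genes (9.52% higher, 10.8% lower). Against anti-CD3 wells 1 rose and 2 fell in BTNL2 wells, or 23.1% beside 30.4% (14.2% higher, 16.2% lower). The median log2 changes of the 13 were -0.07, 0.06 and -0.02, and those of all genes were -0.0048, -0.011 and -0.0046. The 3 genes that passed were Ms4a6c, Ms4a4d and Ms4a6d, which lie on either side of Ms4a6b.

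Ms4a6c, which lies between Ms4a4b and Ms4a6b, fell with B7-2.Fc and stayed low in the BTNL2 wells by its brighter probe set. That probe set, 1457725_PM_at, read 1195.61 and 1322.04 in anti-CD3 wells, 333.37 and 348.55 in B7-2 wells and 475.42 and 336.05 in BTNL2 wells. The B7-2 wells were 3.69-fold lower than anti-CD3 wells (limma adjusted p = 0.000525), and BTNL2 wells were 3.15-fold lower (limma adjusted p = 0.000387). Between BTNL2 and B7-2 wells the log2 difference was 0.23 (limma adjusted p = 0.394), and without array 2 of the BTNL2 wells it was 0.48 and passed (limma adjusted p = 0.0444).

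The dimmer Ms4a6c probe set, 1450234_PM_at, went another way. It read 21.26 and 17.73 in anti-CD3 wells, 27.62 and 20.89 in B7-2 wells and 49.23 and 43.64 in BTNL2 wells, and in the probe set fit it rose 1.93-fold over B7-2 wells (limma adjusted p = 0.00781). Over anti-CD3 wells it rose 2.39-fold (limma adjusted p = 0.00139), the opposite of the 3.15-fold fall of the brighter probe set. With the mean of both probe sets the BTNL2 wells passed as higher than B7-2 wells (0.59, limma adjusted p = 0.0163) and no longer passed as lower than anti-CD3 wells (-0.20, limma adjusted p = 0.306). The annotation gives both probe sets to Ms4a6c, and the data do not say which of them reads the gene.

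Ms4a4d fell 2.47-fold with B7-2.Fc (limma adjusted p = 0.00152), from 40.87 and 42.79 to 17.97 and 15.92, and read 23.91 and 17.38 in BTNL2 wells. Its log2 difference between BTNL2 and B7-2 wells was 0.27 (limma adjusted p = 0.293), which passed without array 2 of the BTNL2 wells (0.50, limma adjusted p = 0.045). Ms4a6d, a member known from macrophages, read 46.77 and 47.39 in anti-CD3 wells, 32.87 and 32.36 in B7-2 wells and 58.82 and 59.36 in BTNL2 wells. It fell 1.44-fold with B7-2.Fc (limma adjusted p = 0.00413) and rose 1.81-fold from there with BTNL2.Fc (limma adjusted p = 0.000504). The fall did not pass with the mean of its probe sets (limma adjusted p = 0.129). Its 1.26-fold rise over anti-CD3 wells (limma adjusted p = 0.0218) did not pass without any 1 of the 4 arrays compared (limma adjusted p from 0.0693 to 0.0988). These values are those of its brightest probe set, 1419599_PM_s_at, whose order of groups was that of Ms4a4b over a smaller span. In the probe set 1419598_PM_at the anti-CD3 and B7-2 wells overlapped. Its log2 difference between BTNL2 and B7-2 wells, 0.46, did not pass in the probe set fit (limma adjusted p = 0.14). Another Ms4a6d probe set, 1449539_PM_at, read 3.94 to 4.30 on the 6 arrays, under the brightest nonspecific controls.

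Ms4a2, Ms4a7 and Ms4a3, which mark other cell types, were dim and did not pass in any comparison. Ms4a2, the beta chain of the high-affinity IgE receptor of mast cells and basophils, read 5.41 to 8.74 over both of its probe sets. Ms4a7, a macrophage member, read 5.38 to 8.57 over its own pair. Ms4a3, found in myeloid progenitors, read 17.89 to 22.44.

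**Figure D2:**
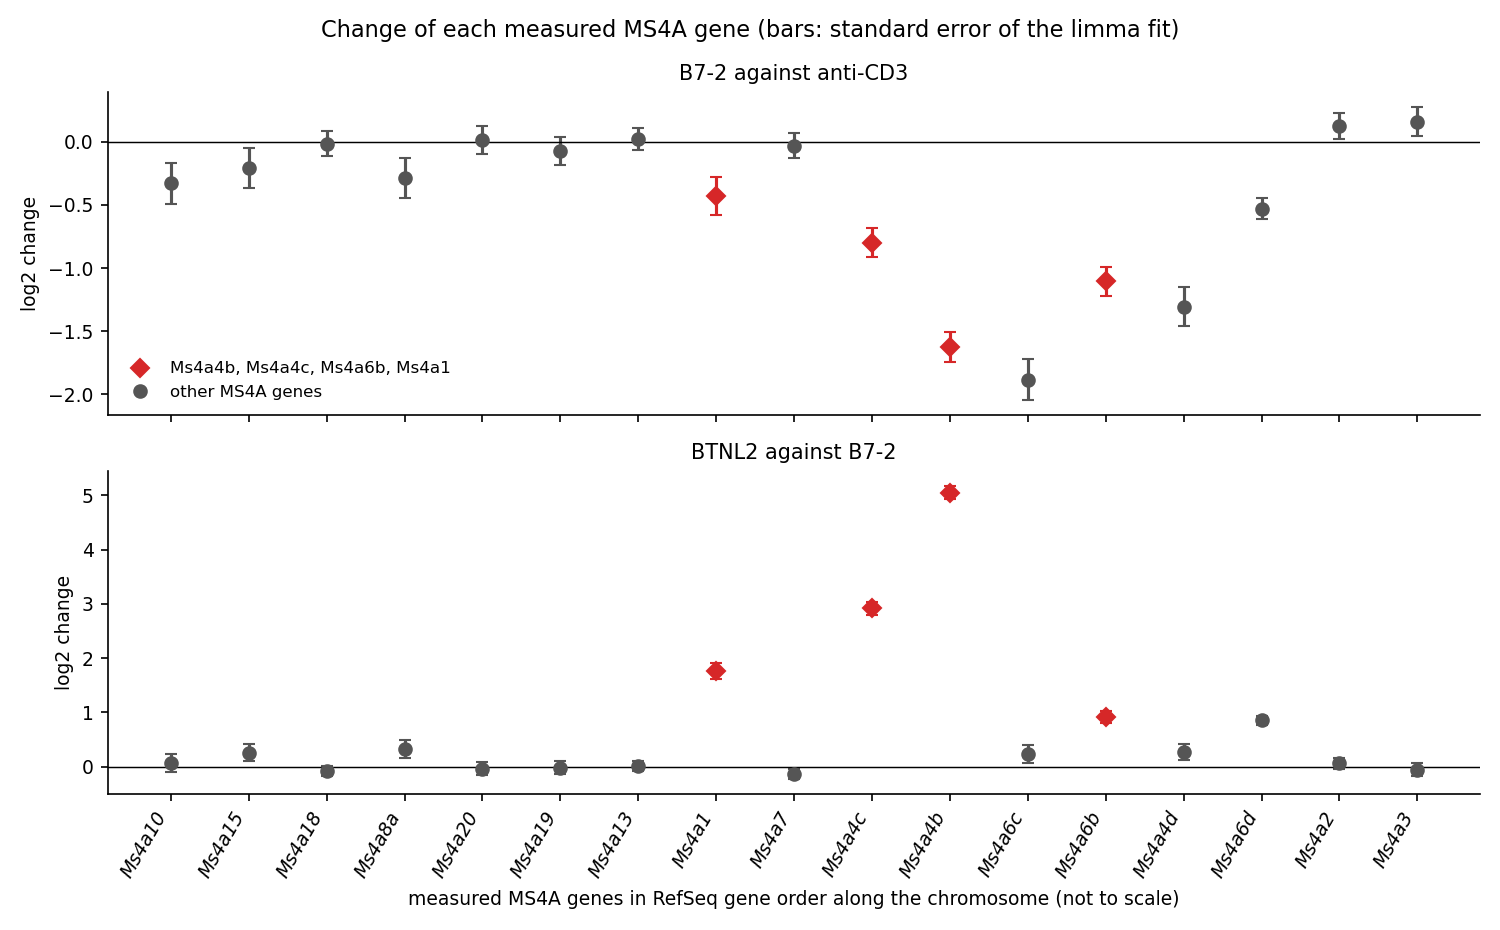
Log2 change of each measured gene of the MS4A cluster, in RefSeq order along chromosome 19, for B7-2 against anti-CD3 wells and BTNL2 against B7-2 wells; points are fitted changes of the brightest probe set and bars are standard errors. Ms4a4b (5.05), Ms4a4c (2.92), Ms4a1 (1.76) and Ms4a6b (0.91) stand highest in the comparison of BTNL2 with B7-2 wells, and most others lie near 0.

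Genes around the cluster were called about as often as genes at large. Of 33 measured neighbours, 15 on each side of the cluster and 3 other genes inside it, 9 changed with B7-2.Fc (5 higher, 4 lower), which is 27.3% beside 24.5% of all genes. With BTNL2.Fc added 7 changed (2 higher, 5 lower), or 21.2% beside 20.4%. The former count was 5 without array 2 of the anti-CD3 wells, and the latter was 4 without array 1 of the B7-2 or of the BTNL2 wells. AW112010, a non-MS4A gene inside the cluster, fell from 4996 ± 160 to 3393 ± 46.9 with B7-2.Fc (SD, n = 2; limma adjusted p = 0.00368) and rose to 4838 ± 11.2 with BTNL2.Fc (limma adjusted p = 0.0057). Gm8369, which lies between Ms4a6c and Ms4a6b, fell from 422 ± 4.62 to 174 ± 14.3 with B7-2.Fc (limma adjusted p = 0.0005) and read 149 ± 14.5 in BTNL2 wells, with no rise from the B7-2 wells (-0.23, limma adjusted p = 0.193). Cd5, a T cell surface receptor beside the cluster, fell 2.01-fold in BTNL2 against B7-2 wells (limma adjusted p = 0.000318), the opposite of Ms4a4b. The 2 neighbours called higher in that comparison were AW112010 and Mpeg1, which lies beside the cluster. Mpeg1 rose 3.61-fold (limma adjusted p = 0.0115), a log2 change of 1.85, or 1.72 without array 1 of the BTNL2 wells.

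Genes that act with MS4A4B in T cells were next set beside it. Tnfrsf18, which encodes GITR, was bright in all groups at 3654 ± 27.2, 3243 ± 224 and 2785 ± 196 in anti-CD3, B7-2 and BTNL2 wells. Its log2 differences were -0.17 (limma adjusted p = 0.265) for B7-2 and -0.22 (limma adjusted p = 0.175) for the BTNL2 wells against B7-2 wells, and both passed as lower where the variance prior had an intensity trend (limma adjusted p = 0.0339 and 0.0107). No rise of GITR messenger RNA was seen where Ms4a4b was 33.2-fold higher. In BTNL2 wells Tnfrsf18 passed as lower than in anti-CD3 wells (-0.39, limma adjusted p = 0.021). That log2 difference was -0.32 without array 1 of the BTNL2 wells. Of 8 measured genes in the list of GITR and cell cycle regulators, 4 rose and 2 fell with B7-2.Fc, or 75.0% beside 24.5% of all genes. With BTNL2.Fc added 1 rose and 0 fell, or 12.5% beside 20.4%. The latter count was 5 with that trend, 3 with the mean of probe sets, 3 without dim genes and 2 without array 2 of the BTNL2 wells. Tnfrsf18 and Cdkn1a were among the calls added with the trend, both as lower. Ccna2, which encodes cyclin A2, was added as higher: its log2 difference was 0.33 (limma adjusted p = 0.0668, and 0.00202 with the trend). It also passed without dim genes and with the mean of probe sets (limma adjusted p = 0.0434 and 0.0451). Against anti-CD3 wells 5 genes of the list rose and 2 fell in BTNL2 wells, or 87.5% beside 30.4% of all genes. Ccne1 and Ccne2, the E cyclins that drive entry into DNA synthesis, rose 1.73-fold and 1.65-fold with B7-2.Fc (limma adjusted p = 0.00194 and 0.00166). They were 1.09-fold and 1.02-fold apart between BTNL2 and B7-2 wells, with log2 differences of 0.12 and 0.02 (limma adjusted p = 0.464 and 0.9).

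Among the inhibitors of cyclin-dependent kinases, Cdkn1b fell 1.89-fold with B7-2.Fc (limma adjusted p = 0.00324), and its log2 difference with BTNL2.Fc added was 0.41 (limma adjusted p = 0.0731), which passed with that trend (limma adjusted p = 0.00518) and without array 2 of the BTNL2 wells (0.58, limma adjusted p = 0.0304). Cdkn2c was the 1 gene of the list that rose in BTNL2 against B7-2 wells, 2.21-fold (limma adjusted p = 0.00032), from 62.51 ± 5.83 to 137.8 ± 1.81. Cdkn1a went the other way: it rose 1.6-fold with B7-2.Fc (limma adjusted p = 0.00252) and its log2 difference with BTNL2.Fc added was -0.32 (limma adjusted p = 0.0509). It passed as lower under 5 alternatives, with limma adjusted p from 0.00111 with the intensity trend to 0.0463 with repeated quantile normalization. Cell division itself was not measured.

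Genes of the Th1 programme, in which Ms4a4b is known to be expressed, changed in both directions with BTNL2.Fc. Of 12 measured, 8 rose and 2 fell against B7-2 wells, or 83.3% beside 20.4% of all genes. The median log2 change of the list was 0.77 beside -0.011 for all genes. Ifng, the Th1 cytokine, rose 2.16-fold over B7-2 wells (limma adjusted p = 0.000837). Il18rap, a chain of the IL-18 receptor, rose 5.35-fold (limma adjusted p = 0.000126), and Cxcr6, a chemokine receptor, rose 2.91-fold (limma adjusted p = 0.000112). Hlx, a Th1 homeobox factor, fell 2.44-fold (limma adjusted p = 0.000458), and Il12rb2, a chain of the IL-12 receptor, fell 2.27-fold (limma adjusted p = 0.0023). Against anti-CD3 wells 6 rose and 4 fell in BTNL2 wells, or 83.3% beside 30.4% of all genes. Tbx21, which encodes the Th1-defining factor T-bet, read 627 ± 106, 540 ± 39.2 and 441 ± 73.5 (SD, n = 2) in anti-CD3, B7-2 and BTNL2 wells. It did not pass between BTNL2 and B7-2 wells (-0.30, limma adjusted p = 0.248). It passed as lower than in anti-CD3 wells (-0.51, limma adjusted p = 0.0495), but not without array 2 of the anti-CD3 wells or array 1 of the BTNL2 wells (limma adjusted p = 0.246 and 0.23).

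The effect of B7-2.Fc on these genes was mixed: 1 of 12 rose and 2 fell, with a median log2 change of -0.13. This is 25.0% called beside 24.5% of all genes. Ifng went from 263.7 ± 31.3 in anti-CD3 wells to 1255 ± 56 in B7-2 wells, 4.77-fold higher (limma adjusted p = 0.000166), where Ms4a4b was 3.09-fold lower. Stat4, which carries the IL-12 signal, did follow the order of Ms4a4b: it fell 1.66-fold with B7-2.Fc (limma adjusted p = 0.00252) and rose 2.34-fold with BTNL2.Fc (limma adjusted p = 0.000262). Cxcr3, another chemokine receptor, fell 1.32-fold (limma adjusted p = 0.0128) and rose 1.27-fold (limma adjusted p = 0.0245). In BTNL2 wells it was about at its level with anti-CD3 alone (-0.05, limma adjusted p = 0.724).

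By their medians, interferon-stimulated genes ran in the direction of Ms4a4b and Ms4a4c in both comparisons. Of 15 measured, 0 rose and 8 fell with B7-2.Fc, or 53.3% beside 24.5% of all genes. With BTNL2.Fc added 14 rose and 0 fell, or 93.3% beside 20.4%. The median log2 changes of the list were -0.57 and 2.25, beside -0.0048 and -0.011 for all genes. The largest rises of the list with BTNL2.Fc added were those of Ifit3, Ifit1, Rtp4 and Oasl2 (log2 changes 4.81, 4.81, 4.53 and 4.38). With B7-2.Fc none of them passed (-0.49, -0.06, 0.195 and -0.19, limma adjusted p = 0.109, 0.911, 0.71 and 0.449). Usp18, an inhibitor of interferon signalling, read 152.9 ± 2.96, 41.26 ± 2.33 and 198 ± 40.3 (SD, n = 2) in anti-CD3, B7-2 and BTNL2 wells. It fell 3.71-fold and rose 4.75-fold (limma adjusted p = 0.000394 and 8.29e-05). Irf7, a transcription factor that amplifies the interferon response, fell 1.67-fold and rose 4.75-fold (limma adjusted p = 0.00209 and 2.2e-05). Gbp2, a guanylate-binding protein, fell 5.59-fold and rose 2.8-fold (limma adjusted p = 6.99e-05 and 6.35e-05). It stayed 2.0-fold under its level with anti-CD3 alone (limma adjusted p = 0.000225). The interferon-stimulated list and the Th1 list are known from earlier results of these data to move, so their direction is not independent evidence.

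Genes of resting T cells were mixed. Of 7 measured, 1 rose and 2 fell with B7-2.Fc, or 42.9% beside 24.5% of all genes. With BTNL2.Fc added 3 rose and 0 fell, or 42.9% beside 20.4%. Igfbp4, expressed in naive T cells, fell 3.27-fold and then rose 2.28-fold (limma adjusted p = 0.000201 and 0.00036). Bach2, a repressor that maintains naive and memory T cells, fell 2.45-fold with B7-2.Fc (limma adjusted p = 0.000273). Its 1.36-fold rise with BTNL2.Fc added (limma adjusted p = 0.0116) did not pass without array 1 or array 2 of the B7-2 wells or array 1 of the BTNL2 wells (limma adjusted p = 0.0631, 0.0519 and 0.0623).

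**Figure D3:**
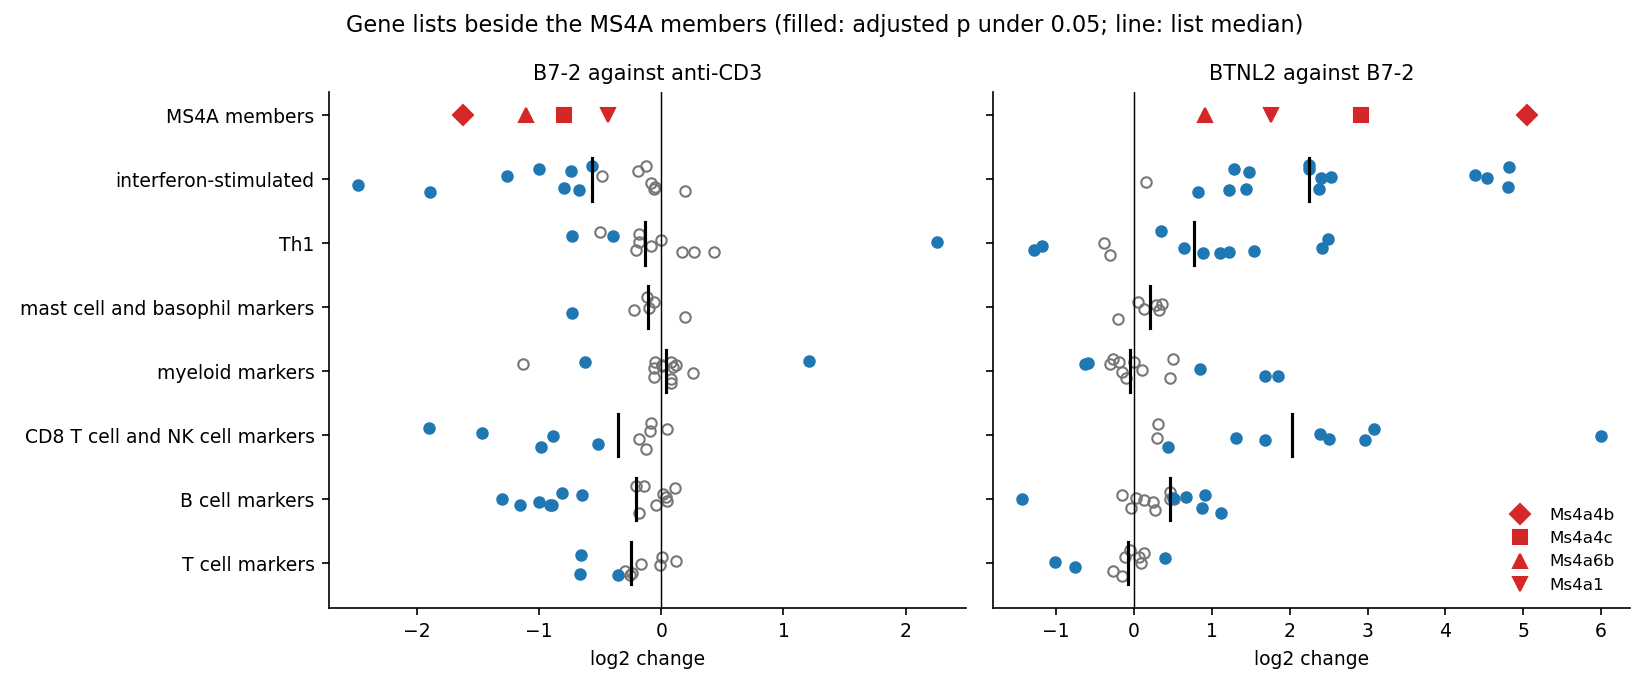
Log2 change of each measured gene in 7 gene lists, for B7-2 against anti-CD3 wells (left) and BTNL2 against B7-2 wells (right); each point is 1 gene, filled where the limma adjusted p is under 0.05, vertical lines are list medians, and the 4 MS4A members at their brightest probe sets have a row of their own without a test. The interferon-stimulated genes (median 2.25) and the CD8 T cell and NK cell markers (median 2.04) lie to the right of 0 in the comparison of BTNL2 with B7-2 wells.

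Ms4a1 is a B cell gene and Ms4a4b is also expressed by CD8 T cells and NK cells, so markers of those cells are given beside them. The 10 measured T cell markers summed to 19670 to 24790 on the 6 arrays. Signals of different probe sets are not levels that can be set against each other, so such sums are compared only between arrays within a list. Of these markers 0 rose and 3 fell with B7-2.Fc, and 1 rose and 2 fell with BTNL2.Fc added. When the variance prior was given an intensity trend, 7 and 5 were called. In bulk samples such as these, fewer cells of a type and less RNA per cell cannot be told apart.

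The 15 measured B cell markers summed to 1067 and 1139 in anti-CD3 wells, 677.8 and 722.9 in B7-2 wells and 805.5 and 951.4 in BTNL2 wells. The list was therefore highest with anti-CD3 alone, where Ms4a1 was not. Within the BTNL2 wells array 2 was the higher one for the list and for Ms4a1. With B7-2.Fc 0 markers rose and 7 fell, and with BTNL2.Fc added 5 rose and 1 fell. Cd79b, a chain of the B cell receptor complex, fell 2.47-fold and rose 1.88-fold (limma adjusted p = 0.00049 and 0.00137). Spib, a transcription factor of B cells and plasmacytoid dendritic cells, fell 1.88-fold and rose 2.17-fold (limma adjusted p = 0.00577 and 0.00257), and Bank1, a B cell adaptor, rose 1.83-fold (limma adjusted p = 0.00376). Ebf1, a factor that defines the B lineage, fell 2.7-fold in BTNL2 against B7-2 wells (limma adjusted p = 0.000414), opposite to Ms4a1. Pax5, another defining factor, read 6.92 to 7.66 as group means, little above the brightest nonspecific controls. The part of B cells in the Ms4a1 signal was not tested.

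The 10 CD8 T cell and NK cell markers summed to 3650 and 3776 in anti-CD3 wells, 3157 and 3165 in B7-2 wells and 7198 and 6428 in BTNL2 wells. This is the order of groups of Ms4a4b, and array 1 was the higher of the BTNL2 wells in both. Nkg7 made up most of each sum and did not pass with B7-2.Fc (-0.08, limma adjusted p = 0.574). Klrd1 and Cd8b1 were higher on array 2 of the BTNL2 wells, and the rest of the list on array 1. With B7-2.Fc 0 rose and 5 fell, and with BTNL2.Fc added 8 rose and 0 fell. Cd8a fell 2.76-fold and rose 8.48-fold (limma adjusted p = 0.000273 and 8.41e-06). Cd8b1 fell 1.85-fold and rose 2.49-fold (limma adjusted p = 0.00548 and 0.00103). Over anti-CD3 wells Cd8a was 3.07-fold higher (limma adjusted p = 5.82e-05), while the 1.35-fold higher level of Cd8b1 did not pass (limma adjusted p = 0.0702). Klrd1, a receptor chain of NK cells and activated CD8 T cells, fell 3.74-fold and rose 5.67-fold (limma adjusted p = 0.000409 and 6.24e-05). Eomes, a transcription factor of these cells, read 19.37 ± 2.4 and 18.14 ± 2.6 in anti-CD3 and B7-2 wells and 1164 ± 245 in BTNL2 wells, 63.8-fold higher than in B7-2 wells (limma adjusted p = 5.55e-06). Ncr1, which defines NK cells, read 5.46, 5 and 6.19 as group means in anti-CD3, B7-2 and BTNL2 wells, close to the brightest nonspecific controls, and on both B7-2 arrays it was below them. The part of CD8 T cells in the Ms4a4b signal was not tested.

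Myeloid and mast cell markers were measured too. Of 14 myeloid markers, 7 read under 20 on every array, and the list summed to 1718 and 1843, 1839 and 1807, and 1464 and 1422 in anti-CD3, B7-2 and BTNL2 wells. With B7-2.Fc 1 rose and 1 fell, or 14.3% beside 24.5% of all genes. With BTNL2.Fc added 3 rose and 2 fell, or 35.7% beside 20.4%. Fcer1g, a signalling chain that myeloid, NK and some T cells share, rose 3.2-fold over B7-2 wells (limma adjusted p = 3.61e-05), while Cst3, a protease inhibitor that makes up most of the summed signal, fell 1.5-fold (limma adjusted p = 0.00396). Mpeg1, a pore-forming protein of macrophages, had the order of groups of Ms4a4b, at 42.47 ± 7.21, 21.01 ± 12 and 69.67 ± 9.12 (SD, n = 2). It rose 3.61-fold over B7-2 wells (limma adjusted p = 0.0115), a call lost without array 1 of the BTNL2 wells (limma adjusted p = 0.0752), and its 2.19-fold lower level with B7-2.Fc did not pass (limma adjusted p = 0.061). Tyrobp, an adaptor of myeloid and NK cells, rose 1.8-fold over B7-2 wells (limma adjusted p = 0.0113), a call lost without array 1 of the B7-2 or of the BTNL2 wells (limma adjusted p = 0.058 and 0.071). The part of myeloid cells in the members' signal was not tested. Of 6 mast cell and basophil markers, 5 read under 20 on every array. Beside 24.5% and 20.4% of all genes, 16.7% of these markers passed with B7-2.Fc and 0.0% with BTNL2.Fc added. In BTNL2 against B7-2 wells limma called 0 of them, with 1 at an unadjusted p under 0.05, and in B7-2 against anti-CD3 wells 0 rose and 1 fell, a count that was 0 without array 1 of the anti-CD3 wells or either array of the B7-2 wells.

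Genes most like each member were found by Pearson's r over the 6 arrays on the log2 scale, among genes whose spread over the arrays was at least 50% of the member's. The arrays fall into 3 groups of 2, so r mostly reads the order and spacing of the group means, and no test is given. Of 211 genes compared with Ms4a4b, Ms4a4c was nearest (r = 0.998), followed by Isg20 (0.9974), Crtam (0.9973), Dusp10 (0.9971) and Smpdl3b (0.9952). The probe set of Ms4a4c may also bind other transcripts, and what part of its likeness came from Ms4a4b transcripts was not tested. Isg20, an interferon-induced exonuclease, read 103 in anti-CD3 wells, 50.82 in B7-2 wells and 709 in BTNL2 wells as group means. Crtam, a receptor of activated CD8 T cells, NK cells and cytotoxic CD4 T cells, read 70.13, 35.25 and 275 in the same order. Dusp10, a phosphatase of MAP kinases, read 237, 125 and 863.

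For Ms4a4c, 813 genes were compared and the nearest were Fgf13 (0.999), Slc14a1 (0.9988) and Ifi205 (0.9981), the last an interferon-inducible gene. For Ms4a6b, 4641 were compared and Scml4 (0.9972), Trim34a (0.996) and Tmem71 (0.9951) were nearest. Scml4 read 182, 53.97 and 153 in anti-CD3, B7-2 and BTNL2 wells, and its BTNL2 and anti-CD3 arrays overlapped. Between those groups its log2 difference was -0.26 ± 0.18, where that of the brighter Ms4a6b probe set was -0.19 ± 0.12. For Ms4a1, 2203 were compared and the nearest, Kynu (0.9897), B4galt4 (0.9872) and Tex2 (0.9872), had lower values of r than those of the other members. None of the 3 is in the B cell list. Among the members themselves, r with Ms4a4b was 0.998 for Ms4a4c, 0.974 for Ms4a1 and 0.627 for Ms4a6b.

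**Figure D4:**
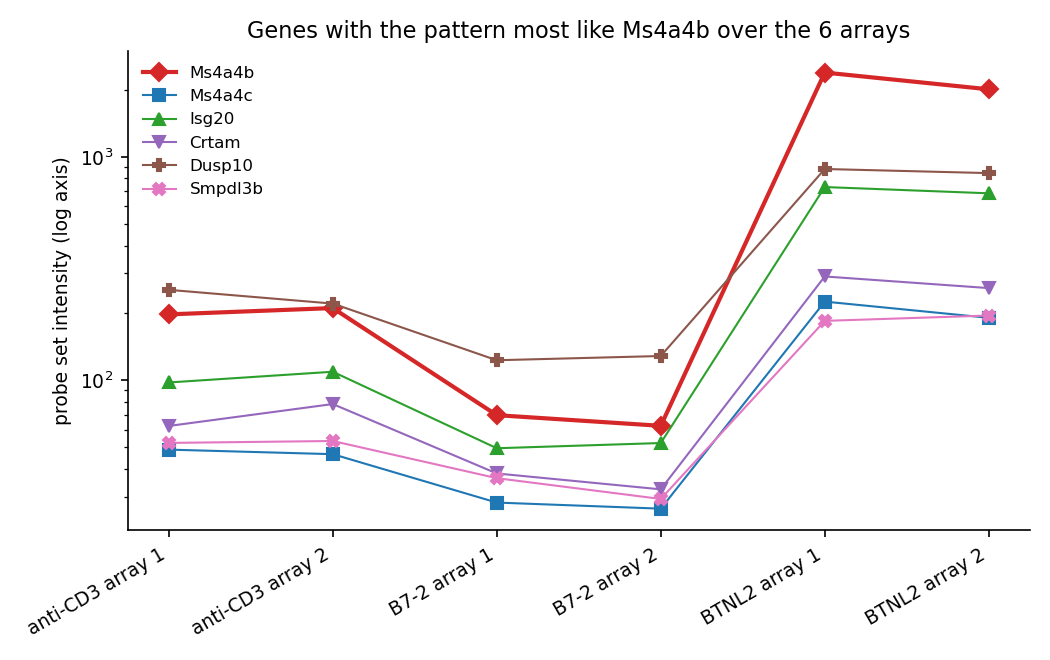
Probe set intensity (log axis) of Ms4a4b and the 5 genes most like it on the 6 arrays; each line is 1 gene at its brightest probe set. All 6 genes are lowest in the B7-2 wells and highest in the BTNL2 wells, and Ms4a4b has the widest span.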

How the data were processed

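Per the labels' protocols, total RNA of each culture went through NuGen Ovation amplification before biotin labelling. The deposited values are probe set intensity values on a linear scale, made by the authors with RMA according to the submitters' processing notes. This method makes the arrays' distributions alike and compresses changes of dim probe sets. Chip definition and genome build: not given in the sources used here. Values were log2 transformed. Of 45141 probe sets in the table, 104 controls were set aside. In the platform annotation 28898 had 1 symbol, 551 several (0 of these with a member) and 15588 were unnamed here, and 28689 were matched by Entrez ID to the GRCm38.p6 gene table.

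Changes were fitted with limma 3.58.1 in R 4.3.3 (lmFit, eBayes; 6 arrays in 1 fit, 3 residual degrees of freedom). The threshold was a p under 0.05 after Benjamini-Hochberg adjustment, two-sided. Members come from the fit over 45037 probe sets, other genes from that over 17097 genes (the probe set of highest mean per gene), unless stated. Folds were taken as 2 raised to the log2 change. The procedure was tested on simulated data. An exact permutation test of 2 against 2 arrays cannot go below p = 0.333. Promoter windows were aligned with Biopython 1.88.

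The members and lists were chosen with earlier results of these data known. Named were all probe sets of the members, other MS4A genes that passed, and genes of each list with a small p or a described role. For the lists not every gene with a smaller p was named. The genes most like each member were named as well (5 for Ms4a4b, 3 for the others), leaving out predicted genes and clones. Across genes, which are not independent replicates, r was 0.997 to 0.998 between duplicates and 0.974 to 0.987 between groups. The ratio of 3' to 5' Gapdh signal was 1.403 and 1.428 in BTNL2 wells and 1.272 to 1.369 in the others. Alternatives changed the variance prior, the filter on dim probe sets, the scaling, the probe sets per gene, the replicate block and the arrays.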

Additional observations from a re-analysis of the deposited data

How the results depend on the processing

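No named gene past the threshold turned its direction under the alternatives run with 1 value per gene. With every probe set tested, the dimmer Ms4a6c probe set passed as higher in BTNL2 than in anti-CD3 wells (1.26, limma adjusted p = 0.00139), where the brighter one passed as lower (-1.65). Leaving out 1 array kept the log2 change of BTNL2 against B7-2 wells at 4.93 to 5.18 for Ms4a4b, 2.80 to 3.04 for Ms4a4c, 0.78 to 1.05 for Ms4a6b and 1.54 to 1.99 for Ms4a1. It gave 2454 to 2722 genes called for B7-2 against anti-CD3 wells, 2142 to 2808 for BTNL2 against B7-2 wells, and 1 to 3 other MS4A genes in the latter. With the mean of a gene's probe sets, Ms4a4b changed by -0.78, 2.93 and 2.15 (B7-2 against anti-CD3, BTNL2 against B7-2, BTNL2 against anti-CD3 wells), Ms4a6b by -1.28, 1.36 and 0.087 (the last turned its sign from -0.19), and Ms4a1 by -0.20 in the first; other MS4A genes called were 2 in BTNL2 against B7-2 and 1 in BTNL2 against anti-CD3 wells. With every probe set tested, 7809, 6222 and 10010 were called, and 2 other MS4A probe sets in BTNL2 against B7-2 wells. The replicate numbers did not pair the arrays (correlations of deviations -0.0641, -0.000967 and -0.0272), and with a replicate block 3765, 3160 and 4827 genes were called. Repeated quantile normalization and median centring moved no member by more than its standard error. The number of arrays limits the precision, and probe sets near the nonspecific controls, such as the dim Ms4a4b one, have little room to show a change.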

Other observations

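Tmem176a and Tmem176b encode membrane proteins related in structure to the MS4A family and lie on another chromosome. Both were highest in the BTNL2 wells. Tmem176b read 98.18 and 106.58 in anti-CD3 wells, 77.35 and 77.79 in B7-2 wells and 221.89 and 189.94 in BTNL2 wells. It rose 2.65-fold in BTNL2 against B7-2 wells (limma adjusted p = 0.000179) and 2.01-fold against anti-CD3 wells (limma adjusted p = 0.000529). Tmem176a read 102.92 and 96.05, 72.19 and 77.26, and 186.66 and 141.2, and rose 2.17-fold over B7-2 wells (limma adjusted p = 0.00168). Its rise over anti-CD3 wells (limma adjusted p = 0.00802) did not pass without array 2 of the anti-CD3 wells (limma adjusted p = 0.0522). The dimmer Tmem176a probe set, 1423909_PM_at, fell 1.62-fold with B7-2.Fc in the probe set fit (limma adjusted p = 0.0258). From there it rose 3.19-fold in BTNL2 wells (limma adjusted p = 0.000649). The fall of Tmem176a also passed with the intensity trend, with only the 2 groups compared and with the mean of probe sets (limma adjusted p = 0.0364, 0.026 and 0.0222). In the main fit, with B7-2.Fc alone, Tmem176a did not pass as lower (limma adjusted p = 0.0757). Tmem176b did (limma adjusted p = 0.0336), but not with the replicate block (limma adjusted p = 0.0538) or without any 1 of the 4 arrays compared (limma adjusted p from 0.0799 to 0.159).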
